A study of Homo sapiens with 10 samples.

Results

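The enzymes that add and remove methyl groups on histones and DNA, with some of their partner proteins, were examined as 42 genes. The accessible chromatin was that of MDA-MB-231, a long-established line from a human breast tumour of the triple-negative kind. The genes were taken by name and fall into 7 classes, which are Polycomb (5 genes), H3K4 writers (7), H3K9 writers (6), H3K36 and H3K79 writers (5), histone demethylases of the KDM families (13), DNMT (3) and TET (3). They are 42 of 19974 protein-coding genes in the RefSeq table used for names, and 295 of the 161934 peaks in the deposited list carry the identifier of a member. ATAC-seq uses Tn5, a transposase that inserts sequencing adapters into open DNA, and was performed on 5 libraries of ARID1A knockout cells and 5 libraries of control cells. ARID1A belongs to BAF, a form of the SWI/SNF complex that moves nucleosomes. How the knockout was made, whether it is a clone and whether replicates were separate cultures is not given in the sources used here. The peak list is pooled over the series and has 0 columns with a value per library. Knockout and control were therefore not compared, depth per library is unknown, and no value below has a replicate error. A peak says that DNA was called open in the series, not how open it was, and nothing about transcription.

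As a check of the label, 4 of 4 mesenchymal genes known from this line (VIM, CD44, AXL and FN1) had a peak over a RefSeq start. So did 4 of 5 luminal genes (ESR1, PGR, GATA3 and ERBB2, but not CDH1), though in ESR1 the outermost start was not covered. Over all coding genes with a known strand the share was 69.4%. The presence of a start peak alone thus did not separate the labelled cell type from a luminal one. These markers were chosen after the list had been seen.

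Histone methylation is written by SET-domain enzymes and DOT1L and removed by the LSD1-type and Jumonji demethylases. Methylation of H3K4 marks promoters and enhancers, H3K36 marks transcribed bodies, and H3K9 and H3K27 mark silent chromatin, the last through the Polycomb complex PRC2. DNMT enzymes methylate cytosine in CpG dinucleotides, and TET enzymes oxidise that mark. Several of these genes are known to start from more than 1 promoter and to give long and short proteins.

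Promoter windows of 6 members are shown first, since the peaks described below differ in length or number over them. Each runs from 250 bases before to 50 bases after a RefSeq start, 5′ to 3′ on the strand of the gene, from RefSeq on GRCh38.p14. Capitals mark matches on either strand. The letters searched were CCAAT for the CCAAT box, GGGCGG for the GC box and TATAAA for the TATA box. For factor families they were CCGGAAG for ETS proteins, TGANTCA for AP-1, GCGGGAA for E2F proteins and GATGGCG for YY1. Matches may overlap, within a motif and between GC box and E2F. The KMT2A window (chr11:118436242-118436541, plus strand) lay under the longest start peak of the H3K4 writers. The KMT2C window (chr7:152435954-152436253, minus strand) lay only partly under a peak of 373 bases, which covered its start. That length is the lowest when each member is taken by its longest covering peak.
KMT2A: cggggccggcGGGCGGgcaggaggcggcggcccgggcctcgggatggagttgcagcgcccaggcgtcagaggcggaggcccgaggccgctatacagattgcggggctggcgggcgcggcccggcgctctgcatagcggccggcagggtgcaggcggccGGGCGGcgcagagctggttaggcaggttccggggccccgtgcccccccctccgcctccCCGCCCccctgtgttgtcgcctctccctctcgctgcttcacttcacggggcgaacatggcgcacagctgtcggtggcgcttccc
KMT2C: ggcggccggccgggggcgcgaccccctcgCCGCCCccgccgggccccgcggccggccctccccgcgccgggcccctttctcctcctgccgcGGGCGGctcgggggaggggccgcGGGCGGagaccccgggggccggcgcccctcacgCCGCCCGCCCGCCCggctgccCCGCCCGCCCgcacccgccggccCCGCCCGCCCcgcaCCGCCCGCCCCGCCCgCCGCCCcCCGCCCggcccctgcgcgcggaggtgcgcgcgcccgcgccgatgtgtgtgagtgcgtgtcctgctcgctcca
The KMT2C window held 15 GC box matches and 56 CpG dinucleotides. The KMT2A window held 3 GC box matches and 36 CpG. The SUV39H2 window (chr10:14878616-14878915, plus strand) is shown because its peak is listed under another gene.
SUV39H2: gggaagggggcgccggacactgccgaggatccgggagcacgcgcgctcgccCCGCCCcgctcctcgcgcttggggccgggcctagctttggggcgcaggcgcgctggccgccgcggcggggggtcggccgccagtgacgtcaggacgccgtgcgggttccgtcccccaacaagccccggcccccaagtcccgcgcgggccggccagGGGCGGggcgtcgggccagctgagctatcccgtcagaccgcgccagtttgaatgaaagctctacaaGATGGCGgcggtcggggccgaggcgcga
It held 2 GC box matches, 1 YY1 match and 44 CpG. For KDM2A, DNMT3A and TET1 the outermost start and the innermost annotated start are shown as pairs, since separate peaks covered both. The KDM2A windows are chr11:67119013-67119312 and chr11:67239764-67240063, both on the plus strand.
KDM2A outer: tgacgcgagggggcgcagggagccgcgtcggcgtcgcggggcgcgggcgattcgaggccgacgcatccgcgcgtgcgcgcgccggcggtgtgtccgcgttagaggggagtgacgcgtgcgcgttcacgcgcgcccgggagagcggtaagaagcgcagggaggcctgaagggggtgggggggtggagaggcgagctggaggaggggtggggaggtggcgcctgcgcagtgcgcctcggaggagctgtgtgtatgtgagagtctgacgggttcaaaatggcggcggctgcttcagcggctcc
KDM2A inner: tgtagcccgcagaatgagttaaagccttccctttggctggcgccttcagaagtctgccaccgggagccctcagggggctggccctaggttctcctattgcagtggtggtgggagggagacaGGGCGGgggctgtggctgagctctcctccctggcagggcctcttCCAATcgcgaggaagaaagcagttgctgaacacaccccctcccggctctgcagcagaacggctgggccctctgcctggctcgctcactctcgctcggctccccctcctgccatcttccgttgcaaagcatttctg
The outer window held 44 CpG and no motif match. The inner window held 12 CpG, 1 CCAAT box and 1 GC box. The DNMT3A windows are chr2:25342541-25342840 and chr2:25252082-25252381, both on the minus strand.
DNMT3A outer: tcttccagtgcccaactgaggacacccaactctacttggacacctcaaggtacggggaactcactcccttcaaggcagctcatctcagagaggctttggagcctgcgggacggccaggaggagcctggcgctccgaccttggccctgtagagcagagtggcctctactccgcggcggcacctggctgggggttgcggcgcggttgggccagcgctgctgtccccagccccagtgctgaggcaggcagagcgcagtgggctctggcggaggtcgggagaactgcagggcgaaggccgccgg
DNMT3A inner: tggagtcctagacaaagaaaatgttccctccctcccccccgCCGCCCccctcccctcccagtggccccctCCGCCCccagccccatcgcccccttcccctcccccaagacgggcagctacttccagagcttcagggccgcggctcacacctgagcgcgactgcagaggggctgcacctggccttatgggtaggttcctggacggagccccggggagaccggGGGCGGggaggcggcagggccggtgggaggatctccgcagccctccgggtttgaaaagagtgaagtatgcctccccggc
Both held 18 CpG, and of these 2 windows only the inner held GC box matches, 3 in number. Windows not printed differed. Under the same outer peak, the window of the start at 25341925 held 46 CpG and 3 GC box matches. That of the start at 25342483 held 26 CpG and none. Under the inner peak, the window of the start at 25252315 held 28 CpG and 4 GC box matches. The TET1 windows are chr10:68560087-68560386 and chr10:68600224-68600523, both on the plus strand.
TET1 outer: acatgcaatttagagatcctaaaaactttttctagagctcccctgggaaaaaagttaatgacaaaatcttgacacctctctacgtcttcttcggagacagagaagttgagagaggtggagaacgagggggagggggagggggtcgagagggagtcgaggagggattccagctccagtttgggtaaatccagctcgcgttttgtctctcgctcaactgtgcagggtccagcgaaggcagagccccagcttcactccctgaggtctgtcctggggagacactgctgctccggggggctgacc
TET1 inner: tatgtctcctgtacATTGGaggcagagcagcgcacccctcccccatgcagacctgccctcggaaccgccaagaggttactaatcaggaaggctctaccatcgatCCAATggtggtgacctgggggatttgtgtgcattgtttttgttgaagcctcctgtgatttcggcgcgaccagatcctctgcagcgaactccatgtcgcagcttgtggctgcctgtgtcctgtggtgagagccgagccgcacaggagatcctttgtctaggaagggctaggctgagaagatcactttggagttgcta
They held 10 and 11 CpG, and the inner window 2 CCAAT boxes. A match is a description of these letters, not a bound site.

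Nearly all members had a start peak. By the list's own gene identifiers, 39 of 42 members had a peak within 1000 bases of a listed transcript start, beside 71.2% of all coding genes. The other 3 were SETDB2, SUV39H2 and KDM1B. SETDB2 and SUV39H2 were paired with no identifier of the list, and the 7 peaks listed under KDM1B all lie farther inside or beyond the gene. Genes paired with no identifier make up 14.4% of coding genes. In shares of all coding genes by identifier they count as having no listed peak, whether or not peaks lie over them. By position, a peak covered a RefSeq start of 42 of 42 members, beside 69.4% of the 19234 coding genes with a known strand. A peak lay within 1000 bases of a start in 77.0% of those genes. The outermost start was covered in 38 of 42 members, beside 64.3%, and the 4 members without were KDM2B, KDM3A, KDM4C and TET3.

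The 3 members without a start peak under their own identifier each had 1 listed under a neighbour. SETDB2, an H3K9 methyltransferase, starts in a peak of 1435 bases at chr13:49443727-49445161 that is listed under CAB39L and also covers a start of that gene. SUV39H2, which trimethylates H3K9 in heterochromatin, starts in a peak of 1744 bases at chr10:14877922-14879665 listed under ENSG00000272853. KDM1B, the LSD1-type demethylase also called LSD2, starts in a peak of 1661 bases at chr6:18154670-18156330 listed under TPMT, whose start lies 253 bases away on the other strand. In all, at least 1 covering peak of 8 members was listed under another gene, beside 15.4% of coding genes with a covering peak. The other 5 were JARID2, SETD1B, DOT1L, TET1 (its inner start only) and TET3 (only its start 1.3 kb from the outermost). A covering peak also held a RefSeq start of another coding gene for 5 of 42 members, beside 20.7%. These were SETDB2, KDM1B, EHMT2 with C2 at 85 bases, NSD3 with LETM2 at 160 bases, and KDM5A with CCDC77 at 27 bases. In each of these 5 peaks the openness cannot be told apart between the members and their neighbours. The same holds for the peaks of DOT1L, SUV39H2, JARID2 and TET3 listed under another gene, which cover a listed start of that gene. For DOT1L it is the coding gene AP3D1.

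The longest start peak under the gene's own identifier had a median of 1437 bases over the 39 members with one, beside 1231 bases over coding genes with one. Taken by position, the median was 1437.5 bases over 42 members, with quartiles of 1319 and 1766, beside 1303 bases with quartiles of 1032 and 1624 over coding genes with a covering peak. A covering peak of at least 1500 bases was found in 20 of 42 members, beside 33.2%, and of at least 2000 bases in 7 of 42, beside 9.4%. The 7 were KDM6B, KMT2A, KDM3A, SETD2, KDM2A, EZH2 and KMT2E.

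**Figure D1:**
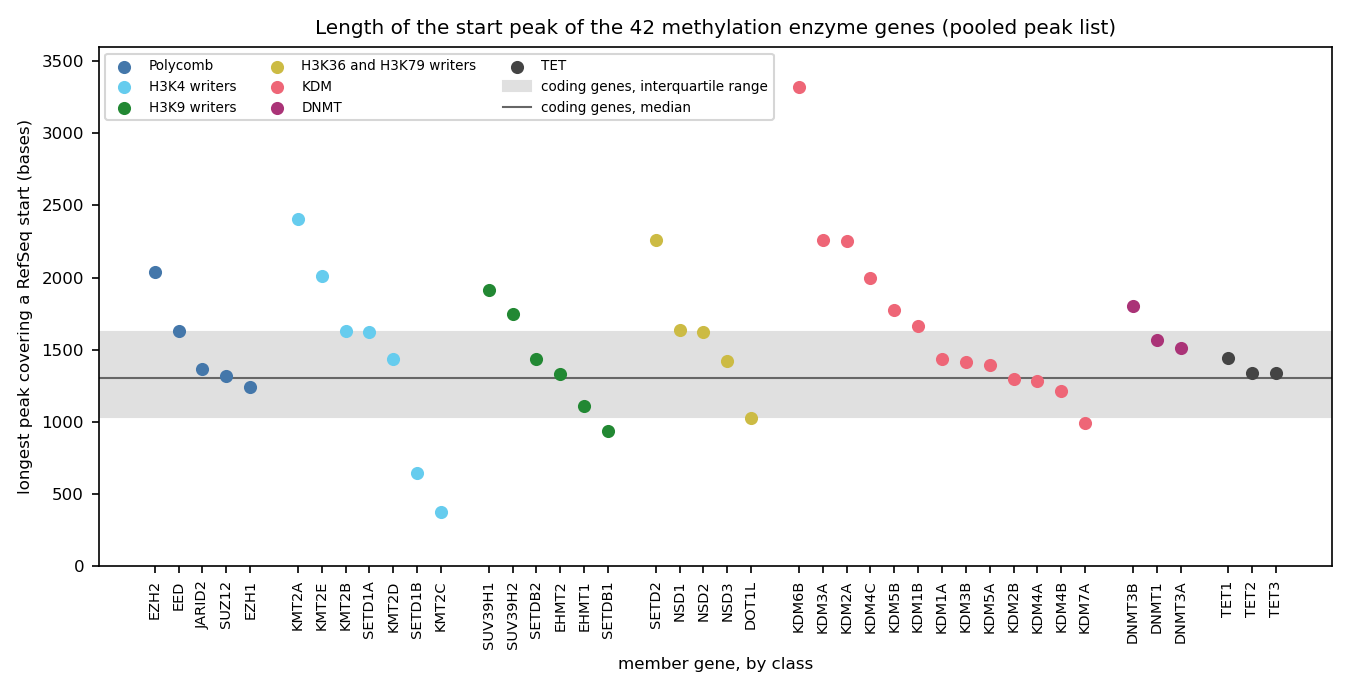
Longest peak covering a RefSeq start (bases, vertical axis) for each of the 42 members, by class and in falling order within a class. Points are single values of the pooled list, the line is the median of 1303 bases and the band the interquartile range (1032 to 1624) over coding genes with a covering peak. KDM6B stands highest at 3319 bases and KMT2C lowest at 373.

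Among the Polycomb genes the covering peak ran between 1238 and 2039 bases, with a median of 1364 over 5 genes. EZH2 (ENSG00000106462), the main H3K27 methyltransferase of PRC2, had the longest, 2039 bases at chr7:148883284-148885322, and its peak covered both RefSeq starts 806 bases apart. EED, which reads H3K27me3 for PRC2, had 1632 bases, SUZ12, its scaffold, 1316, and EZH1, the paralog of EZH2, 1238. JARID2, a partner that recruits PRC2, had 1364 bases at its outermost start and 1342 bases at a start 2786 bases downstream. Both of those peaks are listed under neighbouring identifiers, so its own longest listed start peak was only 305 bases.

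The H3K4 writers had covering peaks of 373 to 2406 bases with a median of 1621 over 7 genes. KMT2A (ENSG00000118058), the MLL methyltransferase of HOX genes, had 2406 bases at chr11:118434510-118436915, of which 1982 bases lay upstream of the start. KMT2E had 2010, KMT2B 1626, SETD1A 1621 and KMT2D 1437 bases. The 2 lowest were singled out after their values were seen. SETD1B, a subunit of a COMPASS complex that makes H3K4me3, had 644 bases over its outermost RefSeq start, listed under RHOF, and 1435 bases at a start inside the gene at chr12:121802819-121804253. KMT2C, which methylates H3K4 at enhancers, had 373 bases at chr7:152435638-152436010, reaching 7 bases upstream of its start. Within 1000 bases of that start lay 3 peaks that together spanned 2958 bases with gaps of 226 and 606 bases. The GC box matches printed above lie within that span but in a gap, between the 373-base peak and the next peak upstream. In 8 other members 2 peaks lay within 1000 bases of a start, and the same count over all coding genes was not made.

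The H3K9 writers had covering peaks of 938 to 1913 bases with a median of 1381.5 over 6 genes. SUV39H1 (ENSG00000101945), the paralog of SUV39H2, had the longest, 1913 bases at chrX:48695317-48697229, and it covered starts 1180 bases apart. EHMT2 (G9a) had 1328 bases and EHMT1 (GLP), its dimer partner, 1109. SETDB1, which silences retroelements, had 938. The H3K36 and H3K79 writers had 1026 to 2258 bases with a median of 1619 over 5 genes. SETD2 (ENSG00000181555), the enzyme for H3K36me3, had 2258 bases at chr3:47163190-47165447. NSD1 had 1638 bases, NSD2 1619, NSD3 1421 and DOT1L, the H3K79 methyltransferase, 1026.

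The demethylases had 991 to 3319 bases with a median of 1434 over 13 genes. KDM6B (ENSG00000132510), which removes H3K27 methylation and is known as an inducible gene, had the longest start peak of all members, 3319 bases at chr17:7833744-7837062, of which 2845 bases lay downstream of the start. A further peak of 3762 bases at chr17:7841454-7845215 covered a listed transcript start inside the gene. The KDM6B gene is 20.6 kb long and 3 peaks overlapped it. KDM3A had 2258 bases, KDM2A 2252, KDM4C 1999 and KDM5B 1773. KDM7A was lowest at 991 bases. The DNMT genes had 1803 bases (DNMT3B), 1563 (DNMT1) and 1509 (DNMT3A), all above the coding median of 1303. The TET genes had 1438 bases (TET1, at its inner start), 1336 (TET2) and 1334 (TET3). TET2 had the longest under its own identifier.

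Several members were open at more than 1 start, among them genes known for long and short isoforms. At least 2 RefSeq starts 1000 bases or more apart were both covered in 9 of 42 members, beside 5.57% of coding genes. Among genes with at least 2 such starts the count was 9 of 13, beside 32.5%. In SUV39H1 and TET2, with starts only 1180 and 1001 bases apart, a continuous peak covered both. In JARID2, NSD1, KDM2A, KDM2B, DNMT3A, TET1 and TET3 separate peaks did. In the other 4, KDM3A, KDM4C, KDM6B and DNMT3B, only 1 was covered. KDM2B and TET3 each had 3 such starts, of which 2 were covered. Other merging distances were not tried for RefSeq starts, so these counts hold for 1000 bases only. By the list's own transcripts, more than 1 start was covered in 8 of 42 members (EHMT1, EHMT2, NSD2, KDM2A, KDM2B, KDM3A, DNMT1 and DNMT3A), beside 13.7%.

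KDM2A (ENSG00000173120), a CpG island reader that demethylates H3K36, had a long peak at both its outer and its inner start. The outer start lay in 2051 bases at chr11:67117685-67119735. The inner start, 120.8 kb downstream, lay in 2252 bases at chr11:67239049-67241300. A short KDM2A protein without the demethylase domain is known to come from an inner start. The inner window printed above held 12 CpG and the outer 44.

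KDM2B (ENSG00000089094), the CpG island reader of a variant PRC1 complex, had its outermost RefSeq start uncovered, with the nearest peak 1499 bases away. Starts 2.0 and 2.6 kb downstream lay in peaks of 709 and 447 bases. The inner start 114.9 kb downstream lay in 1296 bases at chr12:121466883-121468178. The longest peak listed under KDM2B, 2308 bases at chr12:121536707-121539014, covered a listed transcript start between them.

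DNMT3A (ENSG00000119772), a de novo DNA methyltransferase, had 1509 bases at chr2:25341480-25342988 over its outer starts. A peak of 1502 bases at chr2:25251506-25253007 covered the inner starts 90.3 kb downstream. A short isoform, DNMT3A2, is known to start inside the gene. DNMT3B had 1803 bases at its outer start, while its inner start 17.5 kb downstream was uncovered and the nearest peak, of 789 bases, ended 913 bases away. DNMT1 (ENSG00000130816), the maintenance enzyme, had 1563 bases at chr19:10193829-10195391 over its only RefSeq start. Listed transcript starts were covered by peaks of 1174 and 592 bases inside the gene and of 1186 bases upstream at chr19:10230619-10231804. The upstream peak also covered a RefSeq start of S1PR2.

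TET1 (ENSG00000138336), which oxidises 5-methylcytosine, had a peak of 760 bases over its outer start and a further peak of 391 bases after a gap of 587 bases. The inner start, 39.9 kb downstream, lay in a longer peak of 1438 bases at chr10:68599298-68600735, which the list gives to ENSG00000213025. A short TET1 isoform is known to start inside the gene. TET2 had 1336 bases at chr4:105145801-105147136 over both starts. TET3 had no peak over its outermost start, 1334 bases over a start 1.3 kb downstream and 1323 bases at chr2:74001755-74003077 over a start 19.1 kb downstream.

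In KDM4C (ENSG00000107077), an H3K9 and H3K36 demethylase, the outermost start was uncovered with no peak within 4487 bases, and a start 37.1 kb downstream lay in 1999 bases at chr9:6757084-6759082. In KDM3A (ENSG00000115548), an H3K9 demethylase, the outermost start was uncovered, with the nearest peak 1862 bases away, and the start 4.3 kb downstream lay in 2258 bases at chr2:86440653-86442910. A peak of 267 bases covered a further listed start of KDM3A near its 3′ end. NSD1, an H3K36 methyltransferase, had 302 bases at its outermost start and 1638 bases at starts from 1.8 kb downstream. NSD2 (ENSG00000109685), its paralog, had 1619 bases at its RefSeq start and peaks of 538 and 459 bases over listed starts inside the gene. EHMT2 had 2 listed starts covered, and EHMT1 5, the most of any member. Peaks over the inner starts of EHMT1 measured 250 to 849 bases, below the 1109 bases of its outer one.

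**Figure D2:**
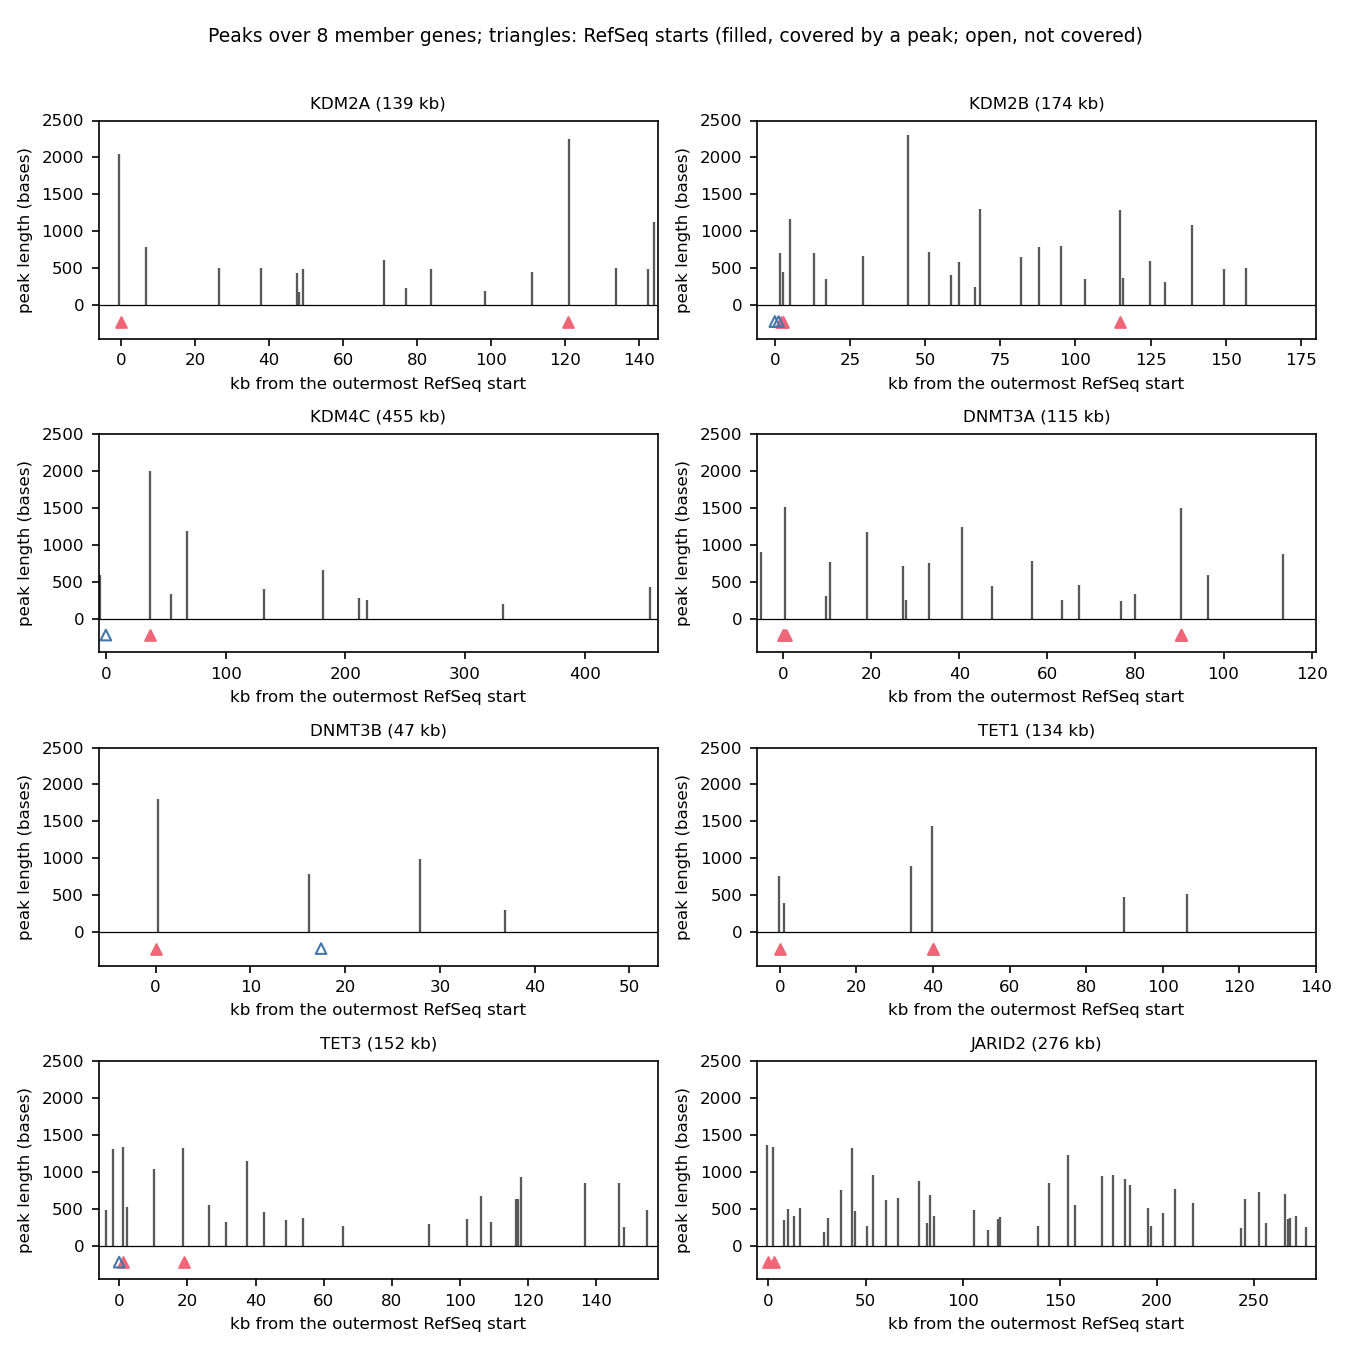
Peaks over 8 members, placed by distance of the peak centre from the outermost RefSeq start (kb, horizontal) with height equal to peak length (bases, vertical). Filled triangles are RefSeq starts covered by a peak and open triangles are uncovered ones. In KDM2A and DNMT3A peaks of similar length stand at the outer and the inner start, and in KDM4C the outermost start has none.

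Of the 295 peaks listed under members, 134 were annotated as promoter, 116 as intron, 17 as distal intergenic and 16 as exon. A further 7 were in 3′ UTR, 3 downstream and 2 in 5′ UTR. Promoter peaks lie within 3000 bases of any listed start, also inside genes. The number of peaks per member had a median of 6, beside 3 over coding genes. Members are also longer genes, with a median of 80.4 kb beside 24.2 kb. Per 100 kb of gene, a median of 7.83 peaks overlapped members by position, beside 9.02 for coding genes and 7.73 for coding genes within the members' range of length.

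**Figure D3:**
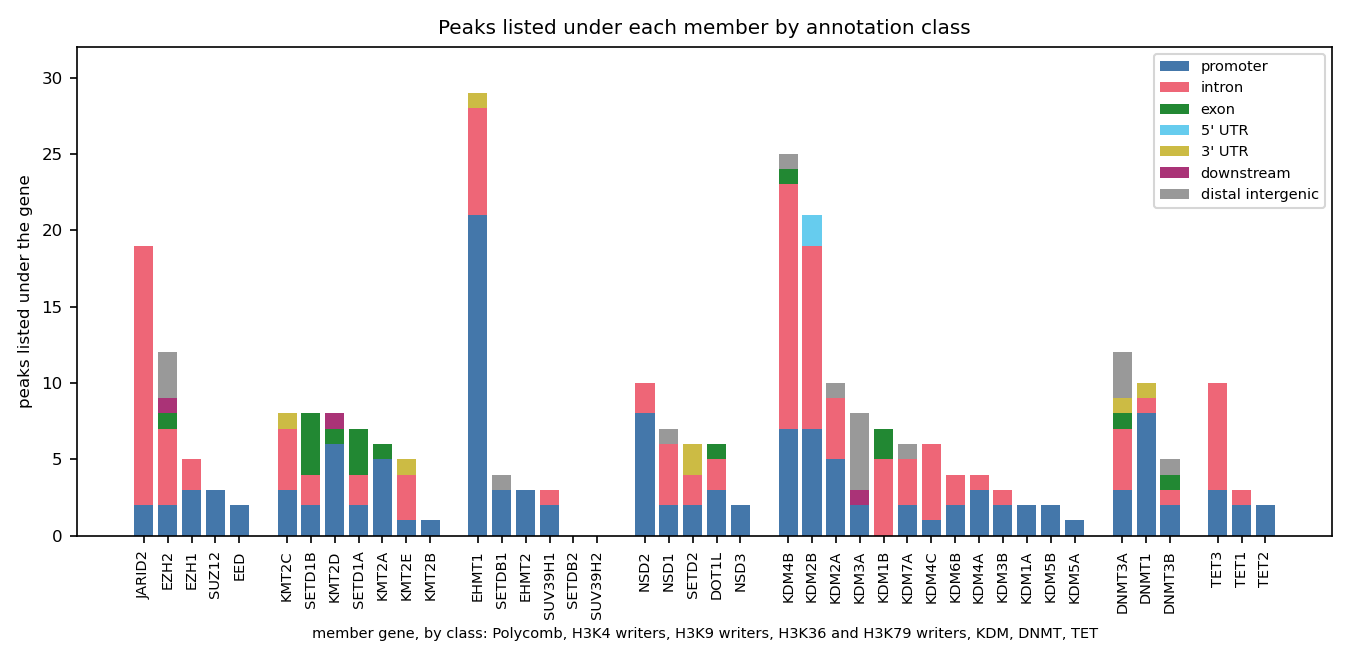
Peaks listed under each member (vertical axis, number), stacked by annotation class and grouped by gene class in the order named on the axis. EHMT1 has the most with 29, of which 21 are promoter peaks, within 3000 bases of a listed start but mostly not over one. SETDB2 and SUV39H2, paired with no identifier, have 0.

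At least 1 intron peak was listed under 27 of 42 members, beside 40.8% of coding genes. Among coding genes within the members' range of length it was 7009 of 12595, and their median length was still shorter, 46.0 kb. Of the 116 intron peaks, 98 lay in introns of the member itself and 18 in another gene, a share of 15.5% beside 13.2% over coding genes. Among the 98, 20.4% lay in intron 1, beside 32.8% for coding genes. Their median length was 479.5 bases beside 488, and 9.18% measured at least 1000 bases beside 10.2%. Intron numbers are those of the transcript used by the annotation, so intron 1 is not always the first of the gene. In KDM1B a peak in intron 1 of 3 lies downstream of a peak in exon 9 of 22. The 4 members with the most held 48 of the 98, and whether these few genes set the shares was not tested.

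JARID2 (ENSG00000008083) led with 17 intron peaks, 6 in intron 1 and 7 in intron 3. Of these 17, those in intron 3 had a median of 821 bases and reached 953, and those in intron 1 a median of 388. Intron peaks over JARID2 that are listed under other identifiers reached 1319 bases, 43.2 kb from its outermost start. By the host gene written in the annotation, 36 intron peaks lay in JARID2, since many are listed under other identifiers within the gene. KDM4B (ENSG00000127663), an H3K9 and H3K36 demethylase, had 16, of which 13 lay in its own introns and 3 in UHRF1, the upstream neighbour that guides DNMT1 to replicating DNA. The longest of these, 1612 bases at chr19:5030699-5032310, lay in intron 2. KDM2B had 12, of which 11 were its own, 4 in intron 12 and 2 in intron 9, where the longest measured 1299 bases. TET3 had 7, of which 6 lay in intron 2, up to 1152 bases at chr2:74020706-74021857. EHMT1 (ENSG00000181090) also had 7, with 4 of its own and 3 annotated to ENSG00000283411, which overlaps it.

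EZH2, KDM1B and KDM4C had 5 each by identifier. By the host gene in the annotation the order differs, since KMT2C held 12 intron peaks, DNMT3A 11, KDM2A 8, KDM4C 6 and KDM1B 3. By identifier KMT2C, DNMT3A and KDM2A had 4 each. By host gene KDM4B held 13, KDM2B 12, TET3 9 and EHMT1 4. All 5 listed under EZH2 lay in CUL1, its downstream neighbour, while 3 intron peaks within EZH2 itself are listed under other identifiers. Of the 12 peaks listed under EZH2, 10 lay beyond its 3′ end. In KDM1B 3 were its own, the longest of 1014 bases, and 2 lay in DEK. In KDM4C all 5 were its own, up to 1182 bases in intron 1. Outside these 8 genes, and chosen after its value was seen, an intron 6 peak of SETD1B measured 1523 bases at chr12:121811302-121812824.

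By all peaks listed, EHMT1 had 29, of which 21 were promoter peaks. KDM4B had 25, KDM2B 21, JARID2 19, and EZH2 and DNMT3A 12 each. By position over the gene, JARID2 had 44 peaks on 276 kb, and 250 of the 253 coding genes within 10% of its length had fewer. EHMT1 had 32 on 217 kb, and 328 of 348 such genes had fewer. TET3 had 21, more than 491 of 528, and DNMT3A 17, more than 642 of 691.

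Some genes stood out in the other direction and were singled out after their values were seen. KDM5A, an H3K4 demethylase, spans 109 kb and had 1 peak in all, its start peak of 1390 bases, which it shares with CCDC77. Of 696 coding genes of like length 650 had more. NSD3 had 2 peaks on 113 kb, with 611 of 709 such genes having more. TET2 had 3 on 134 kb (519 of 609 had more), and KDM4C 9 on 455 kb (123 of 151 had more). Short genes with many peaks were SETD1A, with 9 on 26.9 kb, and SETD1B, with 13 on 42.5 kb. Only 2 of 1059 and 1 of 999 coding genes of like length had more. The density ran between 0.915 peaks per 100 kb in KDM5A and 33.4 in SETD1A.

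**Figure D4:**
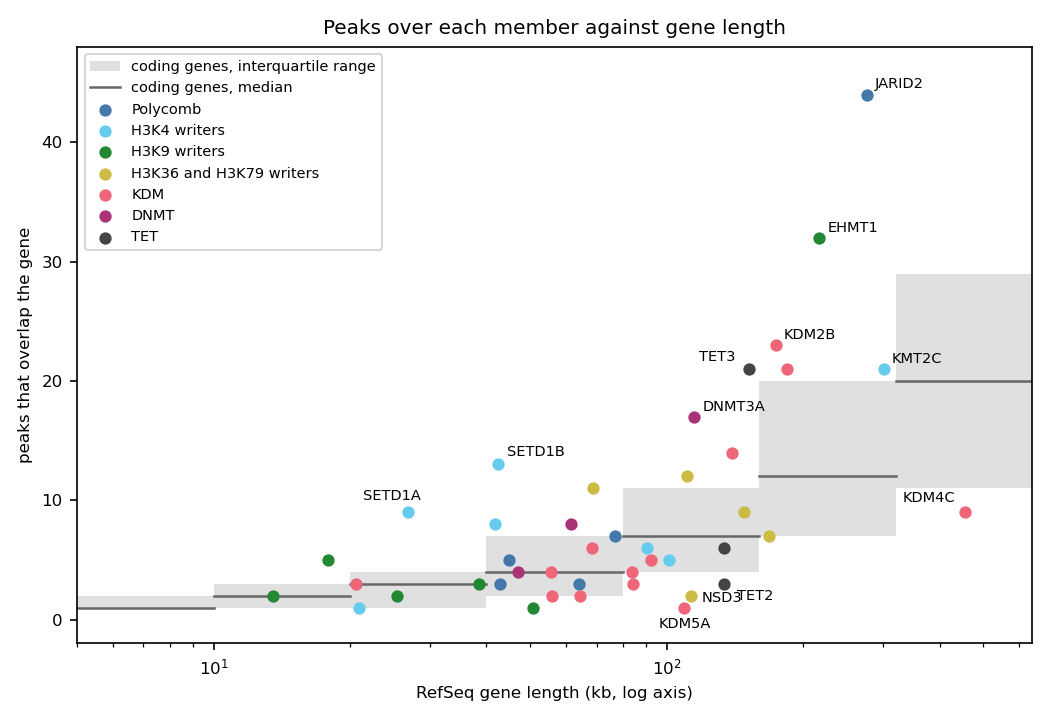
Peaks that overlap each member (vertical axis, number) against RefSeq gene length (kb, log axis), coloured by class. Grey lines and bands give the median and interquartile range of coding genes per length bin, such as 7 peaks (4 to 11) at 80 to 160 kb. JARID2 and EHMT1 lie above the band and KDM5A, NSD3 and KDM4C below it.

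The promoter table held 62 windows of 39 members and none for SETD1B, NSD3 and DOT1L. A peak covered the start in 58 of them, 93.5%, beside 64.3% of the 22132 windows of coding genes. Member windows had a median of 29.5 CpG beside 21. Over windows with at least 20 CpG a peak covered 46 of 46 member starts, 15 of 15 at 20 to 29 CpG beside 85.5%, and 31 of 31 at 30 or more beside 86.4%. At 10 to 19 CpG it covered 9 of 11 beside 66.4%, and below 10 CpG 3 of 5 beside 24.7%. Windows of a gene overlap and share its peak, so these are not independent counts. The 4 uncovered starts were inner starts of DNMT3B and KDM6B, with 3 and 2 CpG, and starts of KDM2B and NSD1, with 15 and 19.

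A GC box match stood in 46 of the 62 member windows, 74.2%, beside 56.3% of all coding windows and 70.7% of covered ones. A CCAAT box stood in 33.9% of member windows, beside 34.6% of all coding windows and 35.0% of covered ones. ETS matches stood in 8.06%, beside 12.8% of all and 18.0% of covered windows. E2F matches stood in 6.45%, beside 8.14% and 10.4%, and YY1 matches in 8.06%, beside 5.25% and 7.12%. AP-1 matches stood in 3.23%, beside 6.15% and 5.38%, and the TATA box in 3.23%, beside 9.46% and 5.15%. Apart from the GC and CCAAT boxes, the member shares rest on 2 to 5 windows each. KMT2C held the most GC box matches, 15. EZH2, whose promoter is a known E2F target, held 4 CCAAT boxes at its outermost start and no match to the E2F letters in this window. KDM1B held 3 E2F matches.

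**Figure D5:**
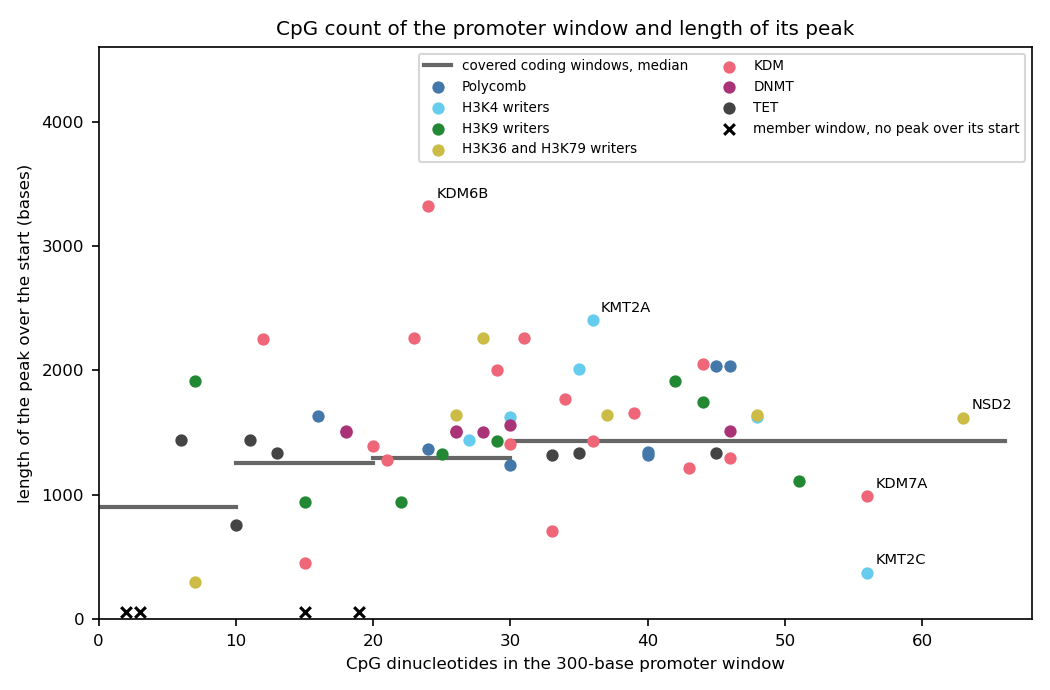
CpG dinucleotides in the 300-base promoter window (horizontal axis, number) against the length of the peak over that start (bases, vertical) for 62 windows of 39 members, coloured by class. Crosses are the 4 member starts without a peak, and grey lines are medians over covered coding windows per CpG bin, 903.5 to 1431 bases. KMT2C and KDM7A, with 56 CpG each, have short peaks of 373 and 991 bases.

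The genes that work beside these enzymes were likewise mostly open at the start. Of 54 related genes in 7 lists, 50 had a start peak under their own identifier, beside 71.2% of coding genes. A peak covered a RefSeq start in 49, beside 69.4%, with DPY30 not scored for lack of a strand. RBBP7, a histone-binding subunit, had the longest of the PRC2 partners, 2134 bases, and EZHIP, a PRC2 inhibitor, had no start peak. Among COMPASS partners PAXIP1 had the longest, 2147 bases. DPY30 was paired with no identifier and has no known strand here, though 3 peaks overlap the gene. Among LSD1 and CoREST partners RCOR1 had 2367 bases. RCOR2 had a start peak under its own identifier but none within 1000 bases of a RefSeq start. The start peak of HDAC2, 1662 bases, is listed under another gene. CBX3, a heterochromatin protein, had 2134 bases among the H3K9 methylation partners. GADD45A, a DNA repair and demethylation factor, had 1973 bases among DNA methylation partners, where DNMT3L, the germ-line cofactor of DNMT3A, had a peak within 1000 bases but none over its start. SETD7, a lysine methyltransferase, had 2280 bases in its list and PRMT3 1590 among the arginine methyltransferases, where PRMT8, known from brain, had none. The median covering peak was 1437.5 bases for the members, 1465 for the related genes and 1303 for coding genes.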

How the data were processed

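ATAC-seq was performed on 10 libraries, 5 of ARID1A knockout and 5 of control MDA-MB-231 cells, numbered 1 to 5 within each group. Per the submitters' processing notes, the tools were Bowtie2 2.3.5.1 and MACS2 2.2.6 and the build was hg38. The peak threshold, duplicate handling, Tn5 shift, merging across libraries and release of the annotation set the number and length of every peak, and none is given in the sources used here. Rows may have been left out of the list used, so no peak in it is not proof of closed DNA.

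The deposited list has 161934 peaks and 17 columns. Per the file headers these hold, in bases, where each peak lies and how long it is, then its annotation class, the transcript with the nearest start and how far away that is. Peaks do not overlap, and their median length is 539 bases. The planned knockout and control test needed counts per library and was not run.

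Symbols were paired with gene identifiers by position and strand, each the other's best overlap, for 17103 of 19974 coding genes (85.6%) and 40 of 42 members. The lowest overlap of a paired member was 0.26 of the union (KDM6B), and 31 members reached 0.9. Strand came from the RefSeq promoter table (GRCh38.p14), or the list where that lacked the gene. RefSeq starts are the gene's outer end and the starts of that table. Starts under 1000 bases apart were merged. No test was run, since the list holds no replicate values and genes are not replicates. The members and lists were chosen with earlier results of these data known. Described singly are the member with the longest start peak in each class, those without a start peak, those with more than 1 start covered, the 8 with most intron peaks and the 5 with most peaks. Others were chosen after their values were seen. Peak lookup matched brute force in 1000 of 1000 simulated intervals. Python 3.11.15, numpy 2.4.6, pandas 2.3.3 and matplotlib 3.10.9 were used.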

Additional observations from a re-analysis of the deposited data

How the results depend on the processing

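No paired analysis was possible because peaks carry no measurement of any replicate. Nor could any library be left out. Of 22 alternatives, 19 stayed within 1.5 times of the value reported, 5 of all alternatives having been added after the data were seen. Members with a start peak numbered 35 to 42, beside 39 as reported. Members with more than 1 listed start covered numbered 19, against 8, when a peak within 1000 bases of the start sufficed. With peaks shorter than the median of the list left out, intron peaks of members numbered 44, against 116, and the median number of peaks per member was 3, against 6. Depth per library is unknown, and its part in these counts was not tested.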
